A study of Mus musculus with 2 samples.

Results

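The genes of ER-to-Golgi secretory transport were followed in 2 C2C12 libraries, 1 labelled WT and 1 labelled GNE KO. They were chosen by name as the subunits, regulators and cargo receptors of the COPII and COPI coats, the golgins that receive their vesicles, and 2 Creb3-like transcription factors. Of 47 listed names 45 matched a gene symbol directly. Ctage5 was found under its RefSeq name Mia2, and Sec12 is the protein name of Preb, which is listed itself, so that 46 genes out of 21829 were described. C2C12 is an immortalised mouse myoblast line, grown here in serum-containing medium with gentamicin and with no further treatment named. The library labelled KO came from cells in which Cas9 editing of Gne, the enzyme that starts sialic acid synthesis, had introduced an indel in an early exon, and edited lines were grown from isolated single clones. With 1 library per line no difference has a replicate check and no test was run, so editing of Gne and divergence of a clone cannot be told apart.

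Secretory proteins leave the endoplasmic reticulum in carriers built by the COPII coat. Sar1, loaded with GTP by Sec12, recruits the inner Sec23-Sec24 layer, which selects cargo, and then the outer Sec13-Sec31 cage. COPI-coated vesicles, recruited by Arf GTPases, return escaped chaperones and transport receptors from the Golgi. Procollagen is too large for an ordinary COPII vesicle, and its export depends on additional factors at the exit site, of which Mia3, also called TANGO1, is the best known. In myoblasts as in fibroblasts this route carries the matrix proteins that the cells secrete.

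All values were taken as FPKM, fragment counts scaled for transcript length and library size, since the deposited values name no unit. A log2 fold change is log2((KO + 1)/(WT + 1)). The comparison took in the 10542 genes whose mean over both libraries reached 1 FPKM, and all 46 members were among them. The values of the low genes fall into steps that show what a single fragment is worth, which puts the WT library at 1.12 times the depth of the library labelled KO. By the same steps the members rest on an estimated 435 to 23361 fragments each, and 43 of the 46 on at least 1000 in both libraries. The 95% interval that counting alone gives to a log2 ratio is then between 0.028 and 0.19 wide on either side, and it leaves out the variation between cultures, which is unknown. Gne itself stood at 6.67 FPKM in WT against 7.34 FPKM in the library labelled KO, so that its RNA level does not tell which library carries the edit.

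The labelled cell type was checked against its markers, and these differed between the libraries. The 9 myoblast markers summed to 293 FPKM in WT against 118 FPKM in the library labelled KO, with 6 of them lower, 2 higher and Pax7 listed at 0 in both. Myod1 was listed at 0 in the library labelled KO. The 6 fibroblast or mesenchymal markers summed to 11.5 and 48.3 FPKM, with 4 higher, of which Postn with 0.44 and 33.9 FPKM made up most of the difference, and Thy1 and Lum were listed at 0 in both. Endothelial, leukocyte and epithelial markers summed to at most 2.90 FPKM per class, with Cdh5, Kdr, Ptprc and Epcam listed at 0 in both libraries. The part of these differences in the values of the transport genes described next was not tested. In bulk RNA a different share of cells and a different level per cell cannot be told apart.

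The route was well expressed in both libraries. The members' median level was 57.7 FPKM, against 15.5 FPKM over all genes past the filter, and 38 members lay above the latter value. Arf1, the GTPase that recruits COPI, was the most abundant member in both libraries. Levels ran down to Gorasp1, a Golgi stacking protein, at 3.86 FPKM in WT against 4.26 FPKM in the library labelled KO. The order was similar in the libraries, with no member moving by more than 7 places.

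Differences between the libraries were small for every member. None was more than 2-fold higher or more than 2-fold lower in the library labelled KO, against a background of 2.84% higher and 3.43% lower among all genes. At those shares 46 genes would hold 1.305 and 1.58 such genes, so 0 is close to the background. None was beyond 1.5-fold either, where the background was 7.68% higher and 7.5% lower, or 3.53 and 3.45 genes in 46. Among genes whose mean reached 20 FPKM the shares beyond 1.5-fold were smaller, at 4.56% and 5.07%. The members' log2 fold changes ran from -0.34 for Tfg to 0.50 for Copg2, a range outside which 24.8% of all genes lay, and 18.4% of the 4383 genes whose mean reached 20 FPKM.

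Within that narrow range most members were on the same side. The library labelled KO had the higher value for 34 of the 46 members, or 73.9%, against a background of 50.7%, a share that would give 23.3 genes in 46, and against 51.5% of the genes whose mean reached 20 FPKM. The median log2 fold change was 0.11 over the members and 0.0061 over all genes. The interquartile range was 0.24 for the members, 0.44 for all genes and 0.38 for the genes whose mean reached 20 FPKM. The summed value of the members was 3195 FPKM in WT against 3452 FPKM in the library labelled KO. The members thus lay slightly above the other genes and closer together.

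**Figure D1:**
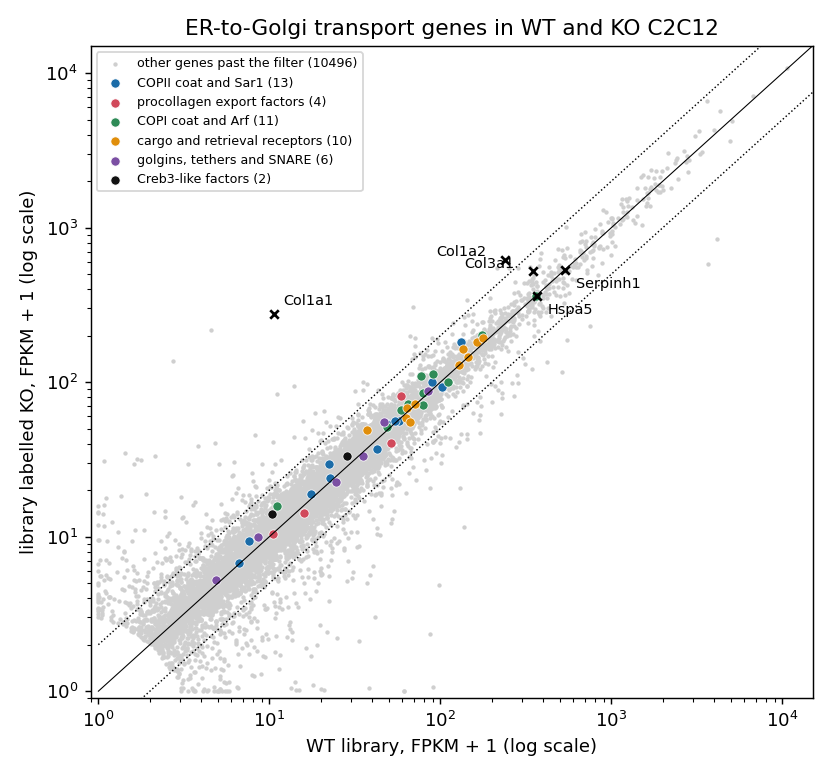
Level of each gene in the WT library (x axis) and in the library labelled KO (y axis), both as FPKM + 1 on log scales, for the 46 members coloured by role and for the other genes past the filter in grey. The solid line marks equal values and the dotted lines a 2-fold difference, and all members lie between the dotted lines with Arf1 under the cross of Hspa5, while the procollagen genes Col1a1 and Col1a2, marked by crosses, lie above them.

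**Figure D2:**
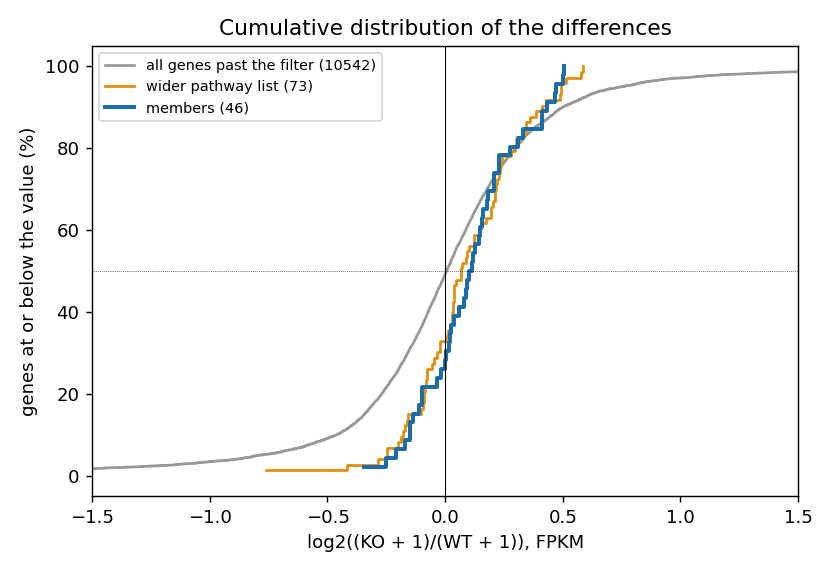
Cumulative share of genes (y axis, percent) at or below each log2 fold change (x axis) for the 46 members, the 73 genes of the wider pathway list past the filter and all 10542 genes past the filter. Both pathway curves are steeper than the curve of all genes and cross the 50% line to the right of it, at 0.11 and 0.068 against 0.0061.

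The type I procollagen genes, whose products are cargo of this route, differed more than the machinery. Col1a1, which encodes the alpha-1 chain of type I procollagen, stood at 9.66 FPKM in WT against 273 FPKM in the library labelled KO, a ratio of 28.3. Col1a2, its partner chain, had 237 and 621 FPKM, a ratio of 2.61, and the type III gene Col3a1 had 347 and 519.9 FPKM, a ratio of 1.497. By contrast the collagen chaperone Serpinh1 had 534 and 533 FPKM, and the general ER chaperone Hspa5 had 367 and 361 FPKM. No coat or receptor gene reached the ratio of Col3a1, the nearest being Copg2 with 1.46.

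Among the 13 genes of the COPII coat, 10 were higher in the library labelled KO and 3 lower, with a median log2 fold change of 0.12. Sar1a, the more abundant gene for the GTPase that starts coat assembly, stood at 131 FPKM in WT against 182 FPKM in the library labelled KO, which is 0.47 on the log2 scale. Its paralogue Sar1b had 46.9 and 53.3 FPKM, 0.18 on the log2 scale. Preb, the membrane-bound exchange factor that loads Sar1 with GTP, had 47.6 and 52.7 FPKM, 0.14 on the log2 scale. The GTPase and its activator were thus both on the higher side, the former by more.

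In the inner layer the paralogues lay on opposite sides. Sec23a, which stimulates GTP hydrolysis by Sar1 and is the gene mutated in a human craniofacial disorder with collagen retained in the ER, stood at 21.2 FPKM in WT against 28.5 FPKM in the library labelled KO, which is 0.41 on the log2 scale. Sec23b had 41.8 and 36.1 FPKM, -0.21 on the log2 scale. The sum of both was 63.0 FPKM in WT against 64.6 FPKM in the library labelled KO, so the total differed little while its make-up did.

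Of the Sec24 genes, which bind cargo, the scarcest stood out. Sec24a stood at 6.57 FPKM in WT against 8.38 FPKM in the library labelled KO, which is 0.31 on the log2 scale. Sec24b had 21.6 and 23.0 FPKM, 0.088 on the log2 scale, and Sec24c and Sec24d were at -0.035 and 0.036. Sec24d, the paralogue linked to procollagen export in vertebrate skeleton, had 53.5 and 54.9 FPKM, a difference within counting error, as was that of Sec24c at 56.3 and 54.9 FPKM. The summed level of the Sec24 genes was 138 FPKM in WT against 141 FPKM in the library labelled KO.

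The outer cage and the scaffold of the exit site differed little. Sec13, which is shared with the nuclear pore, had 88.6 and 98.9 FPKM, 0.16 on the log2 scale. Sec31a, its partner in the cage, stood at 102 FPKM in WT against 92.4 FPKM in the library labelled KO, which is -0.14 on the log2 scale. The partners in the cage thus lay on opposite sides. Sec16a, the scaffold that marks exit sites, had 16.5 and 17.9 FPKM, and its paralogue Sec16b had 5.60 and 5.72 FPKM, the latter within counting error.

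The 4 factors for the export of bulky cargo did not lie on one side, with 1 higher and 3 lower. Mia3, the transmembrane receptor that links procollagen in the lumen to the COPII coat, stood at 57.5 FPKM in WT against 80.0 FPKM in the library labelled KO, which is 0.47 on the log2 scale. It was the third highest of all members on that scale, and at 0.30 it was the tenth highest after removal of trends with GC content and length. Mia2, whose product includes the cTAGE form that binds it at the exit site, had 15.04 and 13.3 FPKM, -0.17 on the log2 scale. Tfg, which forms a meshwork between exit sites and the Golgi, had 50.3 and 39.4 FPKM, -0.34 on the log2 scale and the lowest of all members. Klhl12, the adaptor through which the ligase Cul3 ubiquitinates Sec31, had 9.55 and 9.42 FPKM, which lies within counting error.

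Of the 11 genes of the COPI coat and its Arf GTPases, 9 were higher in the library labelled KO, and the median log2 fold change was 0.16. Arcn1, the delta subunit, stood at 76.1 FPKM in WT against 108 FPKM in the library labelled KO, which is 0.50 on the log2 scale. Copa, the alpha subunit, had 89.5 and 113 FPKM, 0.33 on the log2 scale. Copb1, the beta subunit, had 57.6 and 65.3 FPKM, 0.18 on the log2 scale. These 3 subunits were higher by unequal amounts, and the coat is a heptamer with 1 copy of each. After subtraction of neighbouring genes, described below, Arcn1 was at 0.072, Copa at 0.16 and Copb1 at 0.14. The amounts were then closer together, with Arcn1 the lowest of the 3.

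The remaining subunits were nearer to equal when the paralogues of a subunit were added up, though single paralogues were not all so. Copb2, the beta prime subunit, had 77.8 and 83.6 FPKM, and Cope, the epsilon subunit, had 47.8 and 50.5 FPKM. For the gamma subunit, Copg1 stood at 77.8 FPKM in WT against 70.1 FPKM in the library labelled KO, and the much scarcer Copg2 had 10.1 and 14.7 FPKM, log2 fold changes of -0.15 and 0.50. For the zeta subunit, Copz1 had 110.4 and 99.6 FPKM and Copz2 had 63.5 and 71.1 FPKM, log2 fold changes of -0.15 and 0.16. When paralogues were added up, the 7 subunits spanned 3.64-fold in WT against 3.38-fold in the library labelled KO, from the epsilon to the zeta subunit in both. The gamma and zeta sums had log2 fold changes of -0.050 and -0.027, as the paralogues of each lay on opposite sides. After subtraction of neighbouring genes, described below, Copz1 and Copz2 were on the same side, at 0.26 and 0.22. Copg1 and Copg2 stayed on opposite sides, at -0.11 and 0.41.

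The Arf GTPases that bring COPI to membranes were the most abundant of this class. Arf1 stood at 361.6 FPKM in WT against 362.0 FPKM in the library labelled KO, the smallest difference of any member. Arf4 had 174 and 201 FPKM, 0.21 on the log2 scale.

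The 10 cargo and retrieval receptors had a median log2 fold change of 0.057, with 8 higher and 2 lower. Kdelr1, one of the receptors that retrieve ER chaperones by their C-terminal signal, stood at 135 FPKM in WT against 164.0 FPKM in the library labelled KO, which is 0.28 on the log2 scale. Kdelr2 had 143 and 146 FPKM, a difference within counting error. Kdelr3 had 65.1 and 54.5 FPKM, -0.25 on the log2 scale and the second lowest of all members. The 3 KDEL receptors thus differed in direction, from the lowest value of this class to the second highest.

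Of the 4 p24 proteins among the members, which cycle between the ER and the Golgi as cargo adaptors, Tmed3 was the least abundant and differed most, with 36.0 FPKM in WT and 48.3 FPKM in the library labelled KO, which is 0.41 on the log2 scale. Tmed10 had 163 and 180.3 FPKM, 0.15 on the log2 scale. Tmed2 at 70.5 and 71.3 FPKM and Tmed9 at 127.8 and 128 FPKM differed by less than counting error. Surf4, a receptor for soluble cargo, was among the 3 most abundant members in both libraries, at 176 and 192 FPKM. The lectins that carry glycoproteins forward differed little, Lman1 with 62.7 and 66.9 FPKM and Lman2 with 61.8 and 57.7 FPKM, or 0.091 and -0.098 on the log2 scale.

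Of the tethers and the SNARE that receive carriers at the Golgi 4 of 6 were higher, and the median of the class was 0.087. Sec22b, a SNARE that drives fusion of ER-derived carriers, stood at 45.9 FPKM in WT against 54.0 FPKM in the library labelled KO, which is 0.23 on the log2 scale. Golgb1, the membrane-anchored golgin giantin, had 7.58 and 8.92 FPKM, 0.21 on the log2 scale. Uso1 and Golga2, a tether and the golgin it binds on the cis-Golgi, were both slightly lower, Uso1 with 34.3 and 32.0 FPKM and Golga2 with 23.4 and 21.6 FPKM, or -0.098 and -0.11 on the log2 scale. The stacking protein gene Gorasp2 had 83.7 and 87.2 FPKM, and its paralogue Gorasp1, the scarcest member, could not be told apart from equal at this depth.

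**Figure D3:**
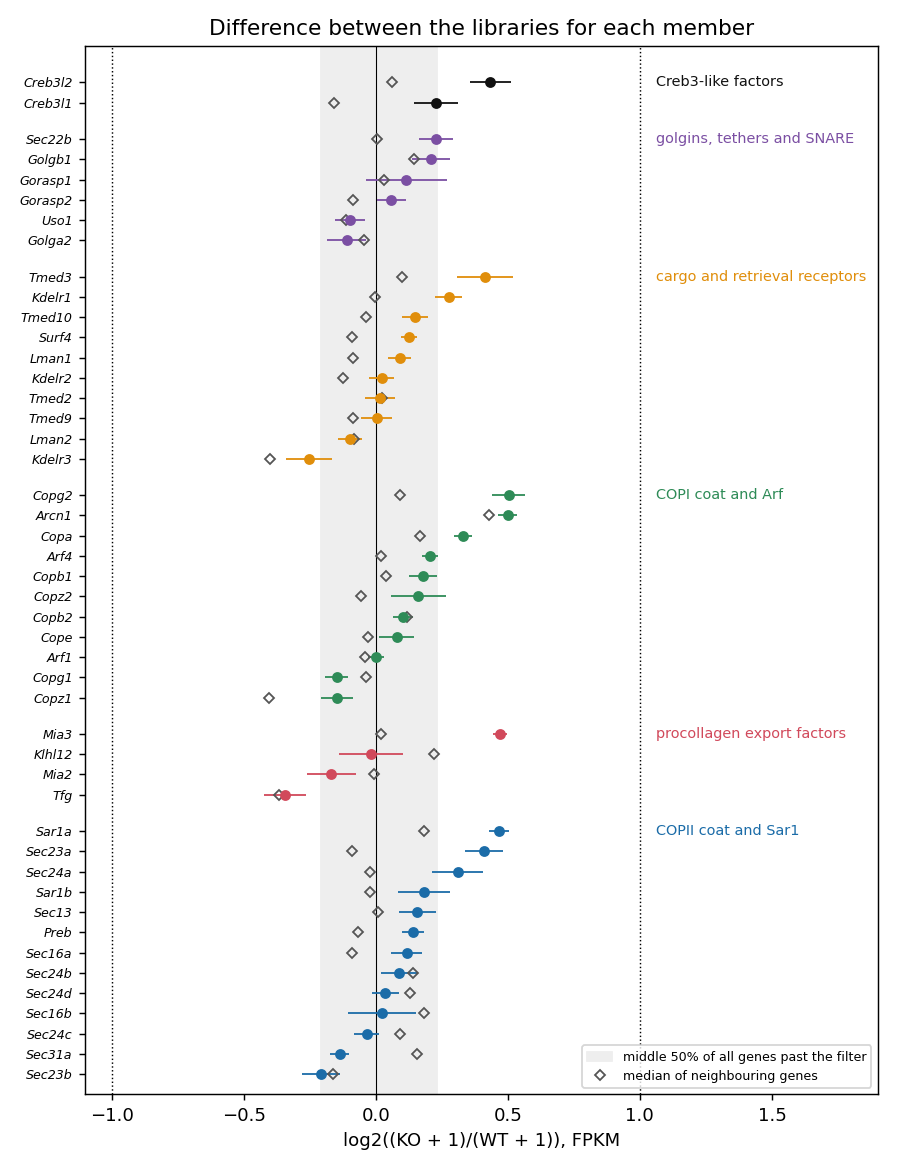
Log2 fold change of each member (x axis, log2((KO + 1)/(WT + 1)) of FPKM), grouped by role, with filled points for the members and open diamonds for the median of the neighbouring genes on the chromosome. Bars span the estimated 95% counting interval only, the grey band is the middle 50% of all genes past the filter, and the dotted lines are 2-fold, which no member reached.

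Creb3l1 and Creb3l2 encode transcription factors that are held in the ER membrane, are cut free in the Golgi and switch on genes of secretion and, in bone and cartilage, of matrix production. Creb3l1 stood at 27.3 FPKM in WT against 32.1 FPKM in the library labelled KO, which is 0.23 on the log2 scale. Creb3l2 had 9.39 and 13.0 FPKM, 0.43 on the log2 scale. Both were higher. Sec23a and Sec24d are known as targets of this family, and their log2 fold changes were 0.41 and 0.036. Other genes of this family and its proteases, from the wider list described below, are named here after their values were seen. Creb3 differed little, with 20.4 FPKM in WT and 21.0 FPKM in the library labelled KO, 0.039 on the log2 scale. Creb3l3 and Creb3l4 did not pass the filter. The proteases that release factors of this family were on the higher side. Mbtps1 had 33.4 and 47.5 FPKM and Mbtps2 had 14.96 and 21.5 FPKM. Both were at 0.49 on the log2 scale, and the genes around Mbtps1 on chromosome 8 were at 0.33, which leaves 0.16, while those around Mbtps2 were at 0.13.

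Such factors, like Xbp1 and Atf6, bind variants of an element called the unfolded protein response element (UPRE), TGACGTGG on either strand. It was searched for, after the values were known, in the RefSeq promoter windows of GRCm38.p6, which run from 250 bases before to 50 bases after a gene's start, and an entry was found for 40 of the 46 members. Arcn1, Creb3l1, Golgb1, Kdelr2, Lman1 and Tmed2 had none. The element was present for 7 of the 40 members, or 17.5%, against 0.714% of all 27025 genes with a window and 1.05% of the 8379 of them that passed the expression filter. The stretches around it are shown, 5′ to 3′ on the strand of each gene, because this element is the sequence feature that these members share, with the element in capitals. Where it lies on the other strand it reads CCACGTCA.
Sec23a: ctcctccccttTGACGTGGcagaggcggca
Sec24d: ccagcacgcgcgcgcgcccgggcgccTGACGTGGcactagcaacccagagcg
Sec16b: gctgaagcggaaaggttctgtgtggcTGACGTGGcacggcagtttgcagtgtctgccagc
Arf1: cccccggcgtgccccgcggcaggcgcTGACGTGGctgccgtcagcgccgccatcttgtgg
Copb1: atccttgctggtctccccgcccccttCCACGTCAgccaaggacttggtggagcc
Copb2: tcccggaagttCCACGTCAgtgggttggcc
Kdelr3: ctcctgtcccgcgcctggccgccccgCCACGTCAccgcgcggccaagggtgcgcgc

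In GRCm38.p6 these stretches lie at chr12:59011993-59012022 for Sec23a on the minus strand, chr3:123267444-123267495 for Sec24d on the plus strand and chr1:157506726-157506785 for Sec16b on the plus strand. Those of the Arf and COPI genes lie at chr11:59228213-59228272 for Arf1 and chr7:114254681-114254734 for Copb1, both on the minus strand, and chr9:98563713-98563742 for Copb2 on the plus strand. That of Kdelr3 lies at chr15:79516352-79516407 on the plus strand. For Sec23a the element begins 7 bases into the transcript, for Copb2 it reaches the first transcribed base, and for the other 5 genes it lies upstream of the start.

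The 7 members cover both coats and a retrieval receptor. In the library labelled KO 6 of the 7 were higher, against 22 of the 33 members whose window lacked the element. Of the 6, Arf1, Sec16b and Sec24d differed by less than counting error. The log2 fold changes of the 7 ran from -0.25 for Kdelr3 to 0.41 for Sec23a. Their median was 0.036, against 0.12 for the 33 members without the element. The 5-letter core ACGTG, part of the UPRE, was present for 27 of the 40 members, or 67.5%, against 30.4% of the genes past the filter. The wider list of the same route, described below, had 68 genes with a window. Of these, 24 held the core and 3 the UPRE, so both were less common there than among the members. The cyclic AMP response element TGACGTCA was present for 2 members, Cope and Klhl12, or 5% against 3.82%. The longer ER stress elements ERSE and ERSE-II, both searched on either strand, matched in no member window. Among the genes past the filter they matched in only 0.155% and 0.0955%, so 0 of 40 is close to the background. A match is a description of the letters, and these windows hold no measurement of binding.

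The make-up of several families differed between the libraries, a comparison within each library that a difference in depth or scaling cannot change. Trends with GC content and length were not removed here. Sec23a made up 33.7% of the Sec23 total in WT against 44.2% in the library labelled KO, a difference of 10.5 percentage points. Copg2 made up 11.5% and 17.3% of the gamma subunit and Copz2 36.5% and 41.7% of the zeta subunit. In each of these 3 pairs the minor paralogue had the larger share in the library labelled KO. Copz1 and Kdelr3 lay among neighbouring genes that were themselves lower in that library.

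The other families had smaller differences or more members. Kdelr1 made up 39.4% and 45.1% of the KDEL receptors and Kdelr3 18.9% and 14.96%, so that Kdelr2 was the most abundant receptor in WT and Kdelr1 in the library labelled KO. Sar1a, the major form in both libraries, made up 73.7% and 77.3%. The minor forms Creb3l2 and Arf4 had a larger share in the library labelled KO than in WT. Creb3l2 made up 25.6% and 28.8% of its pair with Creb3l1. Arf4 made up 32.5% and 35.7% of its pair with Arf1, which leaves out Arf3 and Arf5. The minor forms Lman2 and Sec16b went the other way. Lman2 made up 49.6% and 46.3% of its pair with Lman1, and Sec16b 25.4% and 24.2% of its pair with Sec16a. Gorasp1 differed little, with 4.4% and 4.7% of its pair with Gorasp2. Within the Sec24 family the largest difference was that of Sec24c, with 40.8% and 38.9%.

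**Figure D4:**
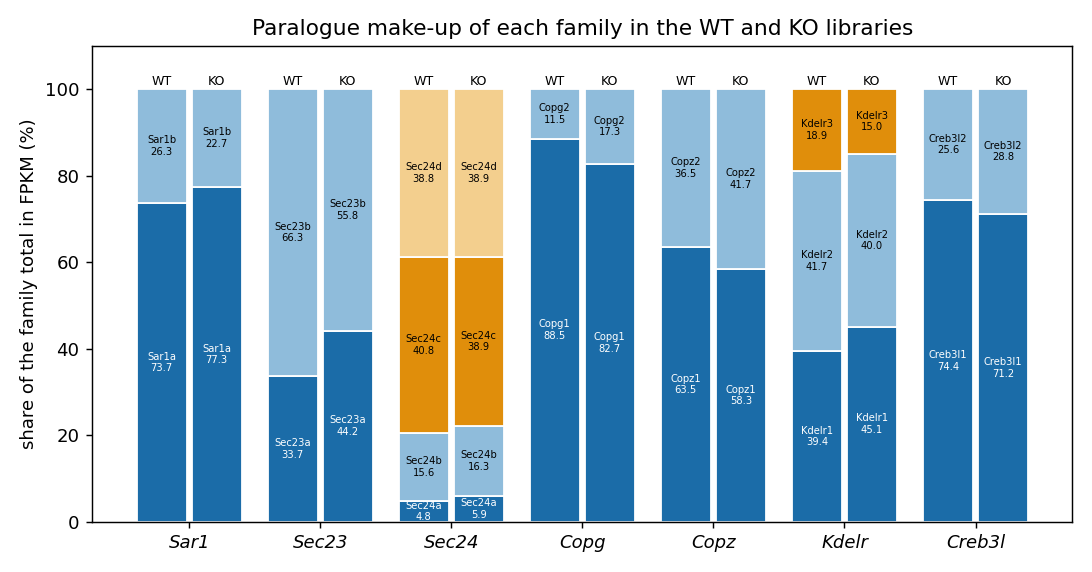
Share of each paralogue in the summed FPKM of its family (y axis, percent) in the WT library and the library labelled KO, for 7 families. Sec23a, Copg2 and Copz2 take a larger share in the library labelled KO, at 44.2%, 17.3% and 41.7%, while the Sec24 bars are nearly alike.

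Genes of some chromosome regions differed together between these libraries, so each member was set beside the median log2 fold change of the genes within 5 Mb on either side, by their positions in GRCm39. This median was beyond 0.3 in size for 4 members. Arcn1, on chromosome 9, had 0.50 with neighbours at 0.43, which leaves 0.072 after subtraction. Tfg, on chromosome 16, had -0.34 with neighbours at -0.37, which leaves 0.024. Kdelr3 and Copz1, both on chromosome 15, had neighbours at -0.40 each, and their values became 0.15 and 0.26. These members thus lay near to their neighbourhoods or above them.

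Of the 12 lower members 9 had neighbours with a median below 0, or 75% against 69.5% of all lower genes, and of the 34 higher members 16 had such neighbours, or 47.1% against 44.7% of all higher genes. These shares were close to those of all genes. Other members stood clear of their surroundings. Mia3 was at 0.45 after subtraction, Copg2 at 0.41 and Creb3l2 at 0.37, each slightly below its own value. Sec23a, at 0.50 the highest after subtraction, and Creb3l1, at 0.39, came out higher than before because their neighbours were at -0.091 and -0.16. Sar1a and Copa came out lower, at 0.28 and 0.16, as did Golgb1 at 0.065 and, in size, Sec23b at -0.045. Sec31a, whose neighbours were at 0.16, became the lowest at -0.29. After subtraction 33 of the 46 members were higher in the library labelled KO, against 50.0% of all genes, with a median of 0.15. The sign changed for 9 members, 4 from lower to higher and 5 from higher to lower. The cause of these shared differences was not tested.

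Neighbouring or overlapping genes also bear on single members. In the GENCODE annotation 19 members overlap another protein-coding gene, 1 of them, Surf4 with Surf1, on the same strand. Sar1b and Sec24a overlap each other by 7691 bases on opposite strands, and on opposite strands too Mia3 overlaps Aida by 15192 bases and Copg2 overlaps Mest by 10554 bases. The libraries are described as strand-specific, and the strand setting of the counting is not given in the sources used here.

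Beyond the members, 77 further genes of the same route were taken as a list of SNAREs, tethers, Rab and Arf regulators, other p24 proteins and receptors. Of the 73 past the filter 49 were higher in the library labelled KO, or 67.1%, with a median log2 fold change of 0.068. On the scale with 1 FPKM added, none was beyond 2-fold or more than 1.5-fold higher and 1 was more than 1.5-fold lower, where the background shares at 1.5-fold would give 5.61 and 5.48 genes. Without the added 1 FPKM, 2 genes were more than 1.5-fold higher, Sec23ip and Trappc6a, against 9.4% of all genes. The lower gene was Arfgap3, which ends the Arf cycle on COPI vesicles, with 32.4 FPKM in WT and 18.7 FPKM in the library labelled KO, which is -0.76 on the log2 scale. It lies on chromosome 15 among neighbours at -0.39.

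The next lowest were Rab2a, a GTPase of retrograde carriers, at -0.42, and Arf3, a GTPase of the Golgi on chromosome 15 with neighbours at -0.40, at -0.29. The highest were Sec23ip, which binds Sec23 at exit sites, with 14.0 and 21.5 FPKM and a log2 fold change of 0.58, Trappc6a at 0.58 and Trappc2l at 0.51, subunits of the TRAPP tether. The neighbours of Trappc2l were at 0.33, which leaves 0.18. The TRAPP genes were higher in 11 of 14 cases and the COG genes in 5 of 8, against 50.7% of all genes, and after subtraction of their neighbours 9 and 2 of them were higher. The wider list thus ran from -0.76 to 0.58, somewhat wider than the members, with most of its genes on the higher side as well.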

How the data were processed

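Polyadenylated RNA of WT and GNE KO C2C12 cells was sequenced, 1 library each. The submitters' processing notes name Trim Galore 0.6.6, STAR 2.7.9a, RSEM 1.3.3 and GRCm38, whereas the study's methods name GRCm39 and another STAR version. The sources also differ on the library kit and read length. The deposited tables pair each gene symbol with 1 value and name no unit, and the values were taken as FPKM, though a TPM table restricted to these symbols cannot be told apart. Such a table would change all values of a library by 1 factor. As deposited, the tables hold 21853 rows, and 24 repeated symbols were reduced to the entry of higher mean.

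Fold changes used a pseudocount of 1, which understates the change of low genes, and a filter of a mean of at least 1 FPKM. No p-value was computed, because there is 1 library per line. Members and lists were chosen with earlier results of these data known. All members were named. Of the wider list, genes beyond 2-fold were to be named, or otherwise the 3 highest and the 3 lowest. Relative depth came from the commonest value of a single fragment among genes below 0.05 FPKM, with transcript length less 200 bases, a step added after the data were seen. Fragments per member use the length of 1 canonical transcript and are approximate. Neighbour medians needed at least 10 genes, with positions, lengths and GC content from GENCODE vM39 on GRCm39, matched by symbol. Lowess smoothing used a span of 0.3. Promoter windows came from RefSeq. The fold-change calls, neighbour medians, removal of the GC trend and motif search were tested on simulated data. The estimates of depth, fragments and counting intervals and the removal of the length trend were not. Computation used numpy 2.4.6, scipy 1.17.1 and statsmodels 0.14.6 under Python 3.11.15, with pandas 2.3.3 for tables and matplotlib 3.10.9 for figures.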

Additional observations from a re-analysis of the deposited data

How the results depend on the processing

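No paired analysis was possible because each line has 1 library. Leaving out a library was not possible either. The alternatives were no filter, a filter at 5 FPKM, pseudocounts of 0.1 and 5, scaling by the median of ratios, subtraction of neighbouring genes and removal of trends on GC content and length. Under each of them 0 members were beyond 1.5-fold and 32 to 34 were higher in the library labelled KO. The median of the members was between 0.078 and 0.15. The medians of the 6 classes kept their sign under each alternative but not their size: that of the receptors, 0.057, became 0.16 after neighbour subtraction, and that of the COPII genes, 0.12, became 0.062 without trends on GC content and length. Without these trends Mia3 was at 0.30 in place of 0.47 and Copg2 at 0.34 in place of 0.50. Sec24a was at 0.19 in place of 0.31 and Golgb1 at 0.074 in place of 0.21. Single members changed sign under neighbour subtraction, 9 of 46, and under scaling by the median of ratios, 2 of 46, whose values were near 0. In the wider list the number of genes more than 1.5-fold higher, 0, became 2 with a pseudocount of 0.1, 1 after neighbour subtraction and 1 without trends on GC content and length, and the number more than 1.5-fold lower, 1, became 0 after neighbour subtraction. With lengths not shortened by 200 bases, the median of estimated fragments per member in WT was 4720 in place of 4813, and the ratio of depths was 1.15. The steps give the precision of counting only, and without replicates the variation between cultures limits each statement.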
